A study of Mus musculus with 24 samples.

Results

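Expression was followed for 9 genes of mouse chromosome 13, the chromosome that also carries Cmah: the histone gene H3c11, and Hfe, Mcur1, Nhlrc1, Unc5a, Rnf180, Elovl7, Naip5 and Cdk7. They were chosen because their log2 intensities had differed between Cmah-null and Cmah-positive arrays of these same animals, so those differences are given below as a description, with no test. The array annotation gives 21 probe sets with 1 of these symbols alone, out of 45037 probe sets without controls and 1371 on chromosome 13. Of the 21, 16 passed the filter on low values in gastrocnemius (a calf muscle) and 15 in heart, a filter that asks at least 3 of 12 arrays to exceed a level of 4.66 in gastrocnemius or 4.78 in heart on the log2 scale (the tissue's 40th percentile).

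The tissues came from 12 male mice aged 2 months, with 1 Affymetrix array of gastrocnemius and 1 of heart for each animal. The groups of 3 animals were Cmah KO mdx, which lack both Cmah and dystrophin, mdx, which lack dystrophin, Cmah KO, which lack Cmah, and wild type. The strain label is C57BL6/10J for Cmah KO mdx and mdx, and C57BL/6J for Cmah KO and wild type, so loss of dystrophin and strain cannot be told apart. Both comparisons across Cmah lie within 1 strain label each.

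Cmah encodes the enzyme that hydroxylates CMP-N-acetylneuraminic acid, and mice without it lack N-glycolylneuraminic acid, as humans do. The 9 genes have no common pathway. H3c11 is a gene of replication-dependent histone H3, Hfe binds the transferrin receptor and takes part in iron sensing, and Mcur1 is a mitochondrial membrane protein tied to calcium uptake. Nhlrc1 encodes malin, a ubiquitin ligase of glycogen metabolism lost in Lafora disease, and Unc5a is a netrin receptor. Rnf180 is a RING-type ubiquitin ligase, Elovl7 elongates long chain fatty acids, Naip5 senses bacterial flagellin for the NLRC4 inflammasome in mice, and Cdk7 is the kinase of the CDK-activating complex and of TFIIH.

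Array medians lay between 41.9 and 50.7 intensity units. Cardiac and skeletal markers followed the tissue labels: Myh6 read 12.89 to 13.48 log2 intensity in heart and 4.37 to 11.38 in gastrocnemius, and Myh4 read 6.30 to 10.68 in heart and 13.57 to 13.94 in gastrocnemius. Dmd, the dystrophin gene, read 7.54 to 8.57 in Cmah KO mdx and 8.06 to 8.59 in mdx gastrocnemius, below 9.99 to 10.24 in Cmah KO and 10.06 to 10.26 in wild type. In heart Dmd read 8.16 to 8.81 in Cmah KO mdx and 8.44 to 9.12 in mdx, against 8.01 to 10.09 in Cmah KO and 9.89 to 10.07 in wild type, so the Cmah KO hearts overlapped with both dystrophin-deficient groups. These heart ranges include the 2 arrays that stand apart, described below. Cmah itself overlapped between Cmah KO mdx and mdx gastrocnemius, at 6.46 to 8.11 and 6.24 to 7.71, but not between Cmah KO and wild type gastrocnemius, at 5.73 to 6.80 and 6.98 to 7.89. In heart it read 5.66 to 7.62 in Cmah KO mdx, 6.46 to 7.12 in mdx, 5.33 to 7.72 in Cmah KO and 5.48 to 8.40 in wild type. Where its probes lie relative to the deleted stretch is not known, so this does not check the labels. Heart Cmah KO replicate 3 and heart Cmah KO mdx replicate 2 stood apart. Their Gapdh 3' minus 5' difference was 4.29 to 4.43 on the log2 scale, against 0.44 to 1.60 in the other 10 hearts and 0.36 to 1.02 in gastrocnemius. Their mean correlation with the other hearts was 0.543 to 0.837, against 0.909 to 0.924. Most heart differences of the 9 genes are therefore given with and without these 2 arrays.

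Promoter windows, from 250 bases before to 50 after the start, were found for all 9 genes (10 windows, with 2 for Rnf180) in the RefSeq table of GRCm38.p6. The 4 printed belong to H3c11 and to the 3 genes with a probe set whose Cmah-null and Cmah-positive gastrocnemius arrays did not overlap, and each is written along the gene's own strand. Capitals mark 4 motifs, each searched on both strands and free to overlap: the CCAAT box, the TATA-like run TATATA, the GC box GGGCGG and the ETS-like motif CCGGAAGT.
H3c11, chr13:21783348-21783647, minus strand: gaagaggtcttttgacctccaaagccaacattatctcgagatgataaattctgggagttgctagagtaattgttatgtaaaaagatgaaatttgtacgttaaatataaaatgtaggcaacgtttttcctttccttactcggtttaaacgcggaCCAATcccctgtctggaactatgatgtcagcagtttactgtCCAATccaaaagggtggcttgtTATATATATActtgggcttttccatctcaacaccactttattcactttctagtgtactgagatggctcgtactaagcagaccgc
Mcur1, chr13:43560142-43560441, minus strand: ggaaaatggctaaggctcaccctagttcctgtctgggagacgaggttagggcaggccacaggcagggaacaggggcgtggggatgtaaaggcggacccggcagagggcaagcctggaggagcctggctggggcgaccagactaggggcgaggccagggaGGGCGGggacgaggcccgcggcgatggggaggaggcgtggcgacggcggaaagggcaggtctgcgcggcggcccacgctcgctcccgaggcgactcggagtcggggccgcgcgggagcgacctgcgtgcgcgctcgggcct
Unc5a, chr13:54949161-54949460, plus strand: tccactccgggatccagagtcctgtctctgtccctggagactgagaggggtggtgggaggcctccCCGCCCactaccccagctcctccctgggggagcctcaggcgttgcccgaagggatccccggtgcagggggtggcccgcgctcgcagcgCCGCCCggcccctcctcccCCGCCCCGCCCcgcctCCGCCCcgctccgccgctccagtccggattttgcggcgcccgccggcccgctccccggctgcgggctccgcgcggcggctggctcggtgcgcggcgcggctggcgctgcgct
Cdk7, chr13:100730893-100731192, minus strand: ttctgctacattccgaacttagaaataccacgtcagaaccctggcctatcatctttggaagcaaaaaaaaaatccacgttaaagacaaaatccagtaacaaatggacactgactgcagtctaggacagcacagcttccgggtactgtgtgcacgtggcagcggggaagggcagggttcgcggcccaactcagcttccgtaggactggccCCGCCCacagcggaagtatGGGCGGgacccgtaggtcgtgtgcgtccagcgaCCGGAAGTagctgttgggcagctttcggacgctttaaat
The windows have little in common. H3c11 has a GC content of 39.3%, with 2 CCAAT sites and a TATATA run, and Unc5a one of 78.3% with 5 GC box sites. The median of 32851 mouse promoters is 52.7%. GGGCGG occurs in 6 of the 10 windows and in 35.7% of all promoters, CCAAT in 2 and in 37.4%, TATATA in 1 and in 5.67%, and CCGGAAGT, in Cdk7, in 1 and in 3.89%. A match in a window is a description and not a site.

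Along chromosome 13, H3c11 and Hfe come before Cmah in the gene order and the other 7 genes after it. Between Cmah and each gene lie 27 annotated genes for Hfe, 249 for H3c11, 305 for Mcur1, 357 for Nhlrc1 and 570 for Unc5a. Naip5, Cdk7, Rnf180 and Elovl7 lie farther away, with 1398, 1415, 1484 and 1530 genes between. Hfe is thus the member with the fewest genes between it and Cmah.

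In gastrocnemius, 3 of the 16 tested probe sets had 6 Cmah-null arrays that did not overlap with the 6 Cmah-positive ones: Mcur1 and Unc5a were lower and Cdk7 higher without Cmah. Over all 29518 probe sets the share was 0.0542% (0.0305% higher, 0.0237% lower), and it was 0.794% among 882 other probe sets of chromosome 13. In heart it was 1 of 15, again Mcur1, with a background of 0.19% of 29421 probe sets (0.0816% higher, 0.109% lower). Without the 2 arrays that stand apart it was still Mcur1 alone, with a background of 0.398% (0.18% higher, 0.218% lower). Since the genes were chosen on these arrays, nothing is read from the distance to the background.

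Mcur1 was the one member whose groups did not overlap in both tissues. Its brighter probe set, 1438024_at, read 9.12, 9.43 and 9.24 log2 intensity in Cmah KO mdx gastrocnemius, against 10.52, 10.37 and 10.21 in mdx. It read 9.65, 9.19 and 9.59 in Cmah KO gastrocnemius, against 10.42, 10.43 and 10.09 in wild type. Every Cmah-null gastrocnemius thus lay below every Cmah-positive one, with or without dystrophin. In heart it read 9.89, 9.50 and 9.87 in Cmah KO mdx, against 11.10, 10.56 and 11.28 in mdx. In Cmah KO hearts it read 9.65, 10.04 and 6.56, against 10.93, 10.22 and 10.85 in wild type hearts, where the 6.56 comes from an array that stands apart. The mean of both Cmah differences was -0.97 ± 0.18 in gastrocnemius (limma standard error, 3 arrays a group) and -0.96 ± 0.22 in heart without the 2 arrays, or -1.57 ± 0.52 with them. The dimmer Mcur1 probe set, 1453732_at, gave a mean difference of 0.00 ± 0.45 in gastrocnemius and -0.83 ± 0.53 in heart without the 2 arrays, or -0.98 ± 0.50 with them, and its groups overlapped in both tissues.

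**Figure D1:**
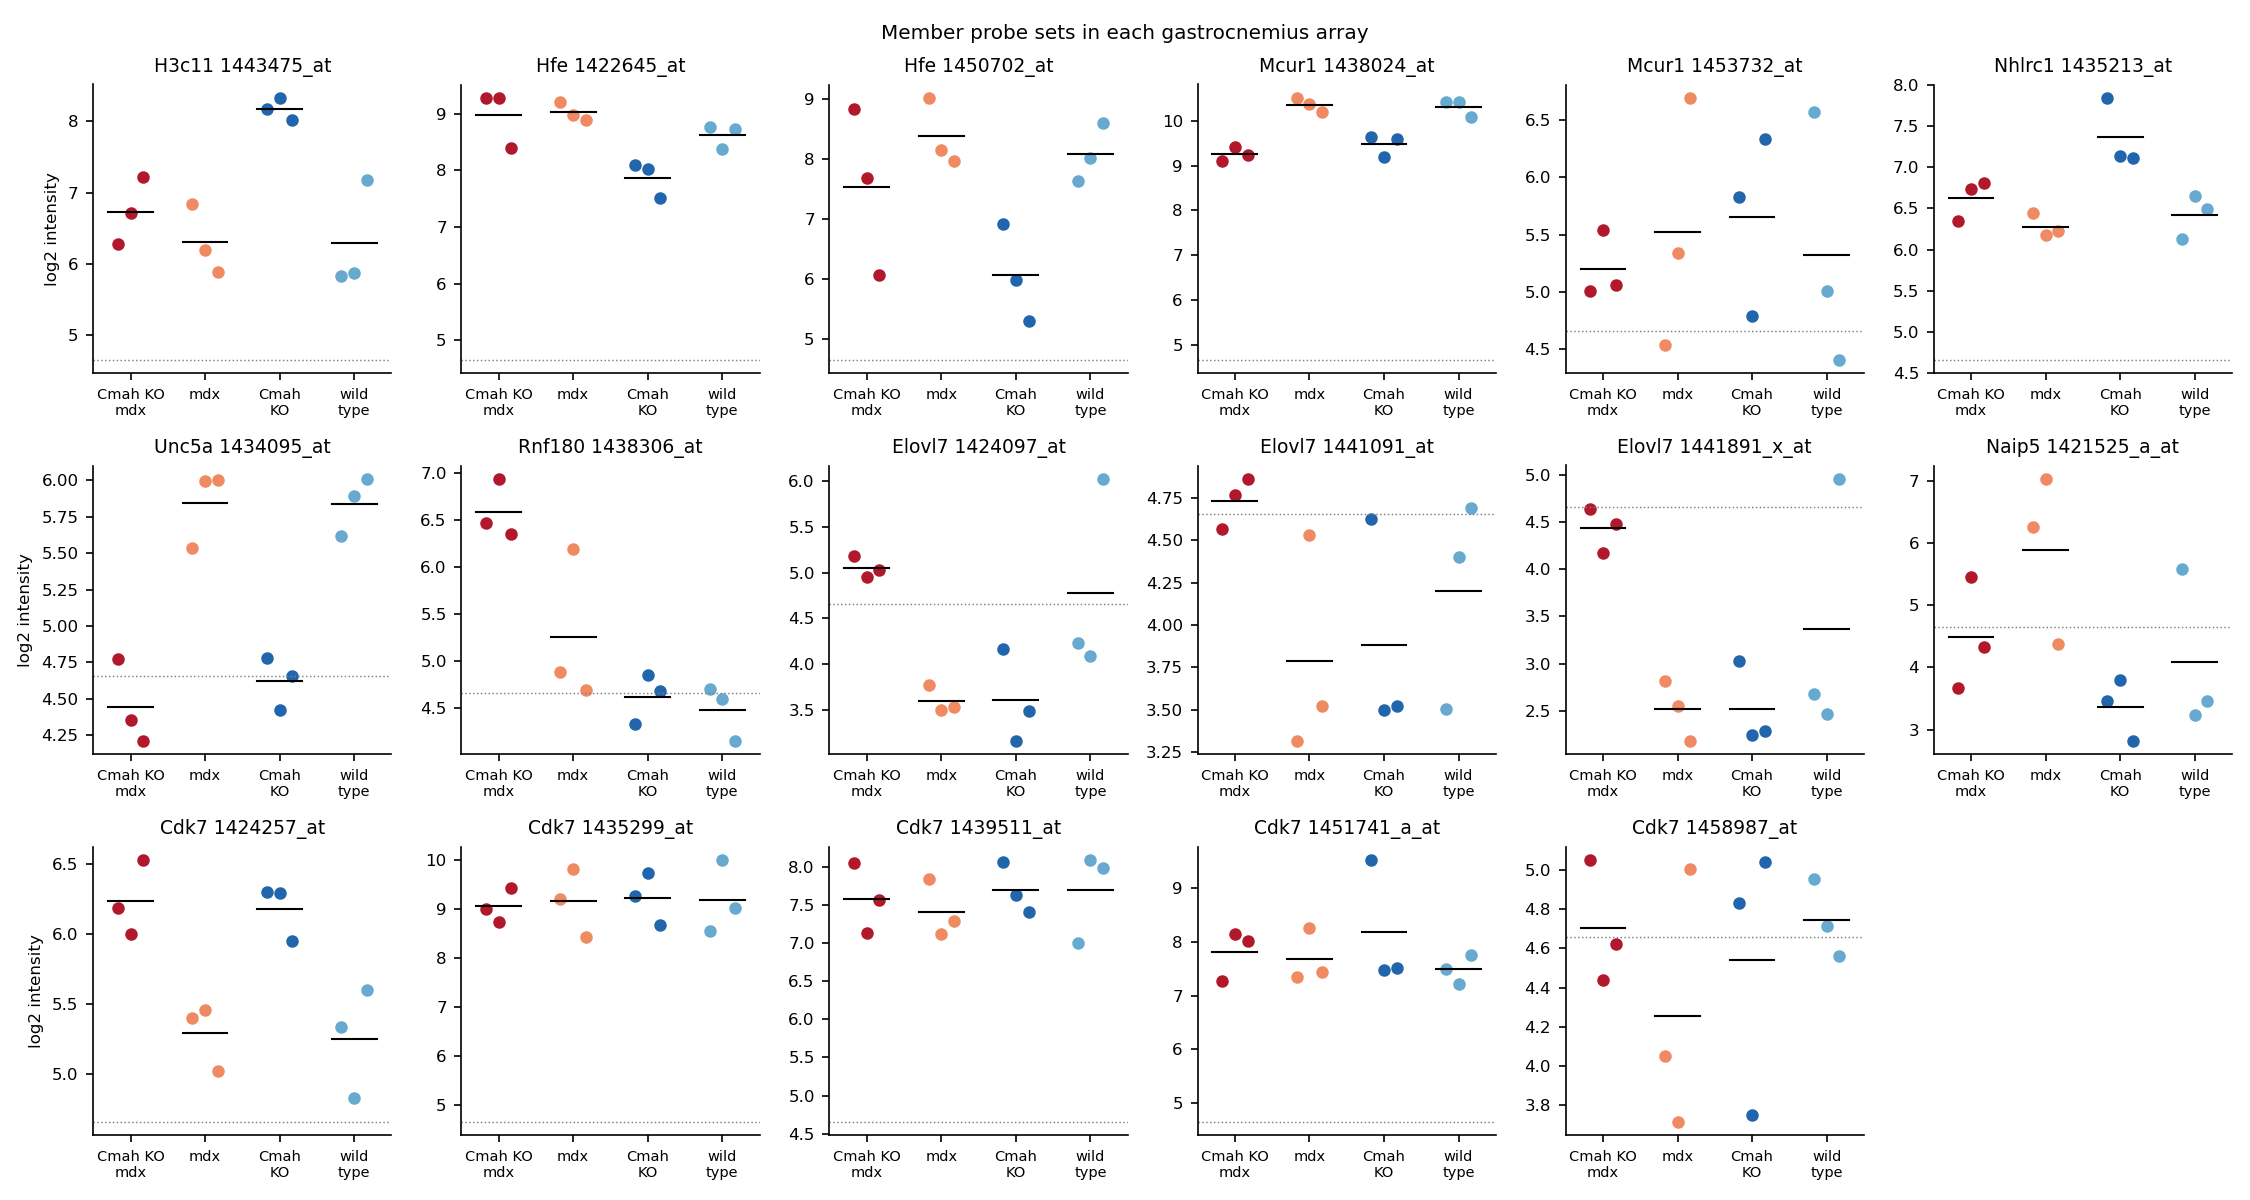
Log2 intensity (vertical axis, a separate scale per panel) of the 17 member probe sets tested in either tissue, in each gastrocnemius array, by group; points are single arrays, lines the means of 3, and the dotted line the filter level of 4.66. Mcur1 1438024_at, Unc5a and Cdk7 1424257_at separate both Cmah-null groups from both Cmah-positive groups.

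Unc5a separated all Cmah-null from all Cmah-positive arrays in gastrocnemius and not in heart. In gastrocnemius it read 4.77, 4.36 and 4.21 in Cmah KO mdx, against 5.54, 5.99 and 6.00 in mdx. Cmah KO gastrocnemius gave 4.78, 4.42 and 4.66, against 5.62, 5.90 and 6.01 in wild type. The gap between the highest Cmah-null and the lowest Cmah-positive array spanned the values 4.78 and 5.54. The Cmah-null values lay close to the filter level of 4.66, so the size of the difference of -1.31 ± 0.19 is uncertain. In heart Unc5a read 4.02, 5.07 and 3.95 in Cmah KO mdx, against 4.15, 5.15 and 4.50 in mdx, and 4.47, 4.08 and 4.84 in Cmah KO, against 4.15, 4.65 and 4.09 in wild type. These groups overlapped, and just 3 of the 12 hearts were above the filter level. They were the mdx heart at 5.15 and the 2 arrays that stand apart, at 5.07 and 4.84. Unc5a thus passed the heart filter only with those 2 arrays, and the values without them lie mostly below the level. Without the array at 5.07, which stands apart, Cmah KO mdx and mdx hearts did not overlap (-0.62 ± 0.33), while Cmah KO and wild type hearts still did. The mean of both differences in heart was -0.04 ± 0.33, or -0.32 ± 0.24 without the 2 arrays that stand apart.

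In gastrocnemius Cdk7 separated the groups at 1 of its 5 probe sets. There 1424257_at read 6.18, 6.00 and 6.53 in Cmah KO mdx, against 5.40, 5.46 and 5.02 in mdx. It read 6.30, 6.29 and 5.95 in Cmah KO, against 5.33, 4.83 and 5.60 in wild type. All 6 Cmah-null arrays lay above all 6 Cmah-positive arrays, by 0.94 ± 0.20 on average. At the other 4 probe sets the gastrocnemius groups overlapped in both comparisons and the mean differences were between -0.04 and 0.41. At the brightest, 1435299_at, Cmah KO mdx gastrocnemius read 9.01, 8.74 and 9.42 against 9.21, 9.83 and 8.44 in mdx, and Cmah KO 9.26, 9.75 and 8.67 against 8.56, 10.01 and 9.02 in wild type. In heart 1424257_at read 6.65, 3.42 and 5.90 in Cmah KO mdx, against 5.82, 6.59 and 6.05 in mdx, and 6.28, 6.06 and 3.75 in Cmah KO, against 6.38, 6.69 and 5.84 in wild type. The 2 low values come from the arrays that stand apart, and without them the heart difference of this probe set was -0.01 ± 0.26, in place of -0.89 ± 0.58. At 1458987_at, Cmah KO hearts read 4.97, 5.01 and 3.75, against 5.16, 5.29 and 5.67 in wild type, lower with no overlap (-0.80 ± 0.49, or -0.39 ± 0.36 without the 2 arrays).

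H3c11 was higher in Cmah KO than in wild type in both tissues. Its single probe set, 1443475_at, read 8.17, 8.33 and 8.02 in Cmah KO gastrocnemius, against 5.83, 5.88 and 7.17 in wild type. In heart it read 5.12, 6.32 and 5.70 in Cmah KO, against 2.91, 4.56 and 3.62 in wild type. The groups did not overlap in either tissue, and the differences were 1.88 ± 0.41 in gastrocnemius and 2.02 ± 0.50 in heart, or 2.03 ± 0.52 in heart without the 2 arrays that stand apart. Without dystrophin the groups overlapped. Cmah KO mdx gastrocnemius read 6.27, 6.71 and 7.21, against 6.83, 6.20 and 5.88 in mdx. Cmah KO mdx heart read 5.17, 5.19 and 4.94, against 4.87, 4.71 and 5.53 in mdx. Those differences were 0.43 ± 0.41 in gastrocnemius and 0.06 ± 0.50 in heart, or 0.02 ± 0.52 without the 2 arrays. All 3 wild type hearts were below the heart filter level of 4.78, so the size of the heart difference is uncertain. A further pair of probe sets is annotated to 12 symbols each, H3c11 among them, and read between 4.80 and 6.24 in gastrocnemius. They cannot be assigned to H3c11 alone.

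Hfe, which encodes an MHC class I-like protein, was lower in Cmah KO than in wild type at both of its probe sets. In gastrocnemius 1450702_at read 6.92, 5.99 and 5.30 in Cmah KO, against 7.64, 8.01 and 8.60 in wild type, and 1422645_at read 8.08, 8.02 and 7.50 against 8.77, 8.38 and 8.73. In heart 1450702_at read 7.86, 6.65 and 6.50 in Cmah KO, against 9.07, 9.44 and 8.69 in wild type, and 1422645_at read 8.37, 8.32 and 3.92 against 9.01, 9.25 and 8.95. None of these 4 pairs of groups overlapped. The differences at 1450702_at were -2.01 ± 0.63 in gastrocnemius and -2.06 ± 0.73 in heart, or -1.81 ± 0.54 in heart without the 2 arrays. At 1422645_at they were -0.76 ± 0.31 and -2.20 ± 0.92, or -0.73 ± 0.27 in heart without the 2 arrays. Without dystrophin the Hfe groups overlapped in both tissues: 1450702_at read 8.83, 7.68 and 6.07 in Cmah KO mdx gastrocnemius against 9.02, 8.15 and 7.97 in mdx, and 9.35, 6.02 and 8.02 in Cmah KO mdx heart against 8.58, 9.74 and 8.70 in mdx. The differences of 1450702_at there were -0.85 ± 0.63 in gastrocnemius and -1.21 ± 0.73 in heart, or -0.33 ± 0.54 without the 2 arrays. At the brighter 1422645_at the means lay closer together. They were 8.98 in Cmah KO mdx and 9.02 in mdx gastrocnemius, and 8.91 and 8.95 in heart with all arrays.

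Nhlrc1, the malin gene, was higher in Cmah KO than in wild type gastrocnemius. It read 7.85, 7.14 and 7.11 in Cmah KO, against 6.12, 6.65 and 6.49 in wild type, with no overlap and a difference of 0.95 ± 0.29. In Cmah KO mdx gastrocnemius it read 6.34, 6.73 and 6.81, against 6.44, 6.18 and 6.22 in mdx, with overlap and a difference of 0.35 ± 0.29. In heart it read 6.37, 6.64 and 7.34 in Cmah KO mdx, against 6.39, 6.37 and 6.43 in mdx. Cmah KO hearts read 6.58, 7.19 and 5.15, against 6.56, 5.40 and 6.40 in wild type. Both heart comparisons overlapped, and Cmah KO against wild type did not once the 5.15 of the array that stands apart was left out (0.76 ± 0.41, in place of 0.19 ± 0.55).

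**Figure D2:**
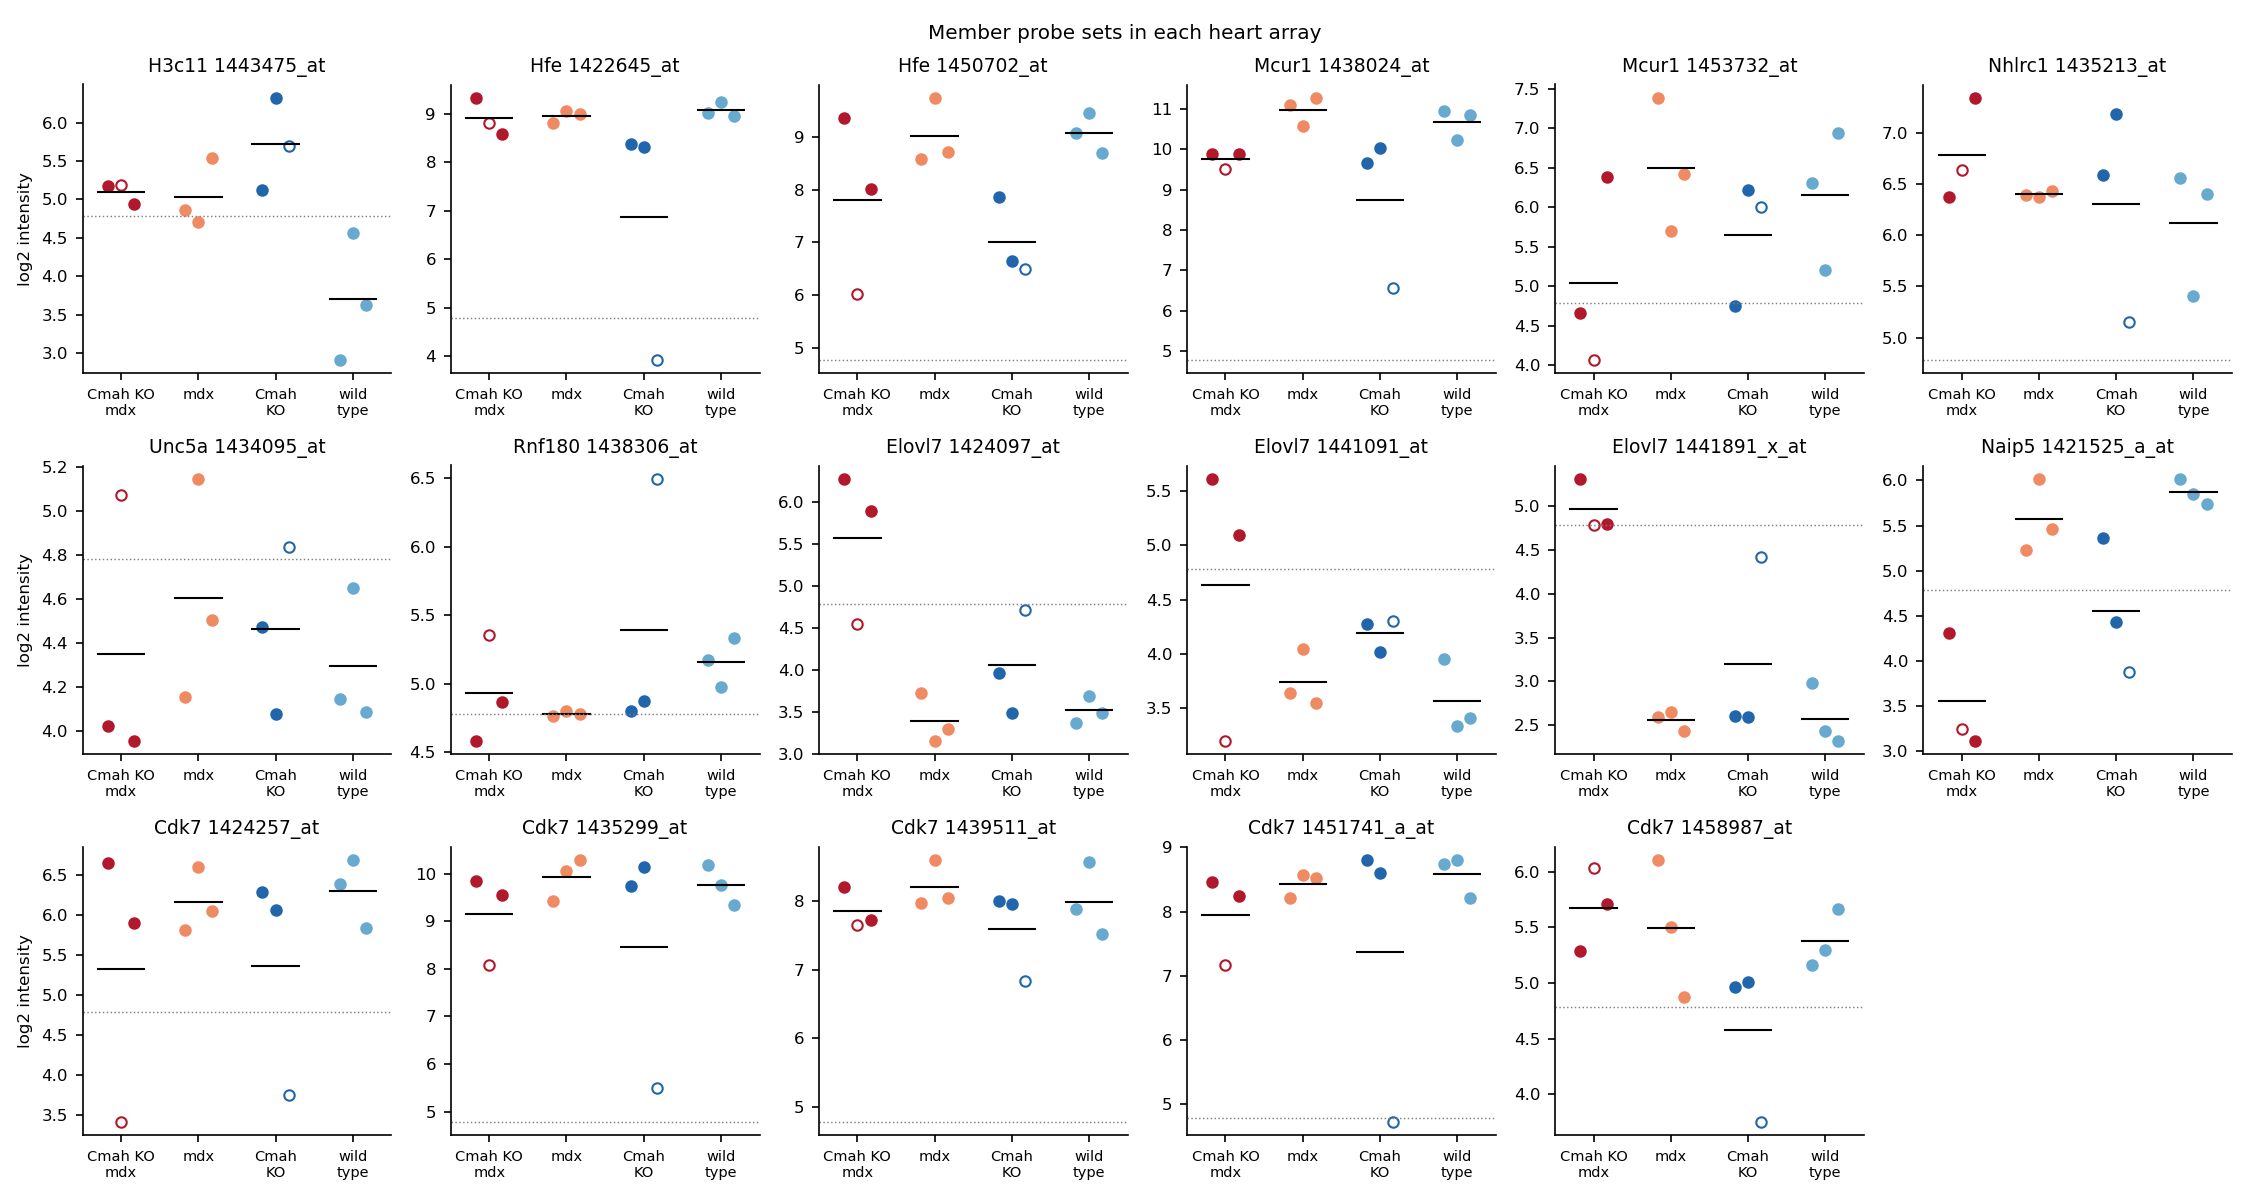
Log2 intensity (vertical axis, a separate scale per panel) of the same 17 probe sets in each heart array, by group; open points are the 2 arrays that stand apart, lines are means of 3 with those arrays included, and the dotted line is the filter level of 4.78. Mcur1 1438024_at and Naip5 are lower in each Cmah-null group than in its Cmah-positive counterpart, and Elovl7 1441891_x_at is high in all 3 Cmah KO mdx hearts.

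Naip5 was lower without Cmah in heart. It read 4.30, 3.25 and 3.11 in Cmah KO mdx heart, against 5.23, 6.02 and 5.47 in mdx. It read 5.36, 4.43 and 3.87 in Cmah KO heart, against 6.02, 5.85 and 5.73 in wild type. Neither pair overlapped, while the highest Cmah KO heart lay above the lowest mdx heart. The mean of both differences was -1.67 ± 0.35, or -1.42 ± 0.30 without the 2 arrays that stand apart. In gastrocnemius the single arrays were far apart: 3.68, 5.45 and 4.32 in Cmah KO mdx against 6.26, 7.04 and 4.38 in mdx, and 3.46, 3.80 and 2.82 in Cmah KO against 5.58, 3.24 and 3.45 in wild type. Those groups overlapped, with a mean difference of -1.07 ± 0.53, and 4 of the 12 gastrocnemius arrays were above the filter level. The wild type array at 5.58 also had the highest summed level of 3 B cell markers in gastrocnemius, 11.62 on the log2 scale against 5.27 to 9.50 in the other 11. Its macrophage marker sum was 13.31, against 11.78 and 11.87 in the other 2 wild type arrays. Other arrays went apart for the B cell sum: the 9.50 belongs to the Cmah KO array at 2.82, the lowest Naip5 of the 12. The mdx array at 7.04, the highest Naip5, had a B cell sum of 6.14 and a macrophage sum of 13.79. In heart the macrophage sum (7 of 7 markers) was 12.30 to 12.73 in Cmah KO mdx, 12.15 to 12.79 in mdx, 10.31 to 12.49 in Cmah KO and 12.58 to 13.23 in wild type. Without the 2 arrays it was 12.41 to 12.73 in Cmah KO mdx and 12.36 to 12.49 in Cmah KO. Its part in the Naip5 values was not tested, and in whole tissue fewer cells of a type and less RNA per cell cannot be told apart. Mouse Naip genes are close copies of one another, so the probe set may also read other copies.

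Elovl7 was higher in Cmah KO mdx than in mdx in both tissues, and Rnf180 in gastrocnemius. For Elovl7, 1424097_at read 5.18, 4.95 and 5.03 in Cmah KO mdx gastrocnemius, against 3.77, 3.50 and 3.53 in mdx. In Cmah KO gastrocnemius it read 4.17, 3.16 and 3.48, against 4.23, 4.09 and 6.03 in wild type. The Cmah KO mdx and mdx groups did not overlap (1.46 ± 0.46), while wild type replicate 3 held the highest value of all 12, and without it the difference of Cmah KO against wild type was -0.55, in place of -1.18 ± 0.46. In heart the same probe set read 6.28, 4.54 and 5.89 in Cmah KO mdx, against 3.72, 3.15 and 3.30 in mdx, and 3.96, 3.48 and 4.71 in Cmah KO, against 3.37, 3.69 and 3.48 in wild type. It was not tested there, with 2 hearts above the filter level. Another, 1441891_x_at, read 5.32, 4.79 and 4.80 in Cmah KO mdx heart, against 2.60, 2.65 and 2.43 in mdx. Those 3 hearts were also the ones that carried it past the filter, and the difference was 2.41 ± 0.51, or 2.50 ± 0.27 without the 2 arrays. Most Elovl7 probe sets went the same way: Cmah KO mdx lay above mdx without overlap at 4 of 6 in gastrocnemius (2 tested) and at 5 of 6 in heart (1 tested). In Cmah KO against wild type this held for 0 of 6 in gastrocnemius and 1 of 6 in heart. Of all tested probe sets, 2.28% in gastrocnemius and 3.43% in heart were higher without overlap in Cmah KO mdx than in mdx. For Cmah KO against wild type it was 1.78% and 1.89%. These shares do not cover untested probe sets, and the heart counts include the arrays that stand apart. All 6 probe sets read the same gene and are not separate findings. Most Elovl7 values lay below the filter level, so the sizes are uncertain, and 4 of the 6 probe sets in gastrocnemius and 5 in heart were not tested.

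Rnf180 read 6.47, 6.94 and 6.35 in Cmah KO mdx gastrocnemius at 1438306_at, against 4.88, 6.19 and 4.70 in mdx. It read 4.33, 4.85 and 4.68 in Cmah KO gastrocnemius, against 4.70, 4.59 and 4.15 in wild type. The first pair did not overlap (1.33 ± 0.39), and the second did (0.13 ± 0.39). In heart it read 4.58, 5.35 and 4.87 in Cmah KO mdx, against 4.76, 4.80 and 4.78 in mdx, and 4.80, 4.87 and 6.50 in Cmah KO, against 5.17, 4.98 and 5.33 in wild type. The highest value of each Cmah-null heart group came from an array that stands apart. Without the array at 6.50, Cmah KO hearts lay below wild type hearts with no overlap (-0.32 ± 0.22, in place of 0.23 ± 0.49). The mean of both Cmah differences in heart was 0.19 ± 0.34, or -0.19 ± 0.15 without the 2 arrays. The other Rnf180 probe set, 1453857_at, was tested in neither tissue and read 2.33 to 3.06 in gastrocnemius.

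**Figure D3:**
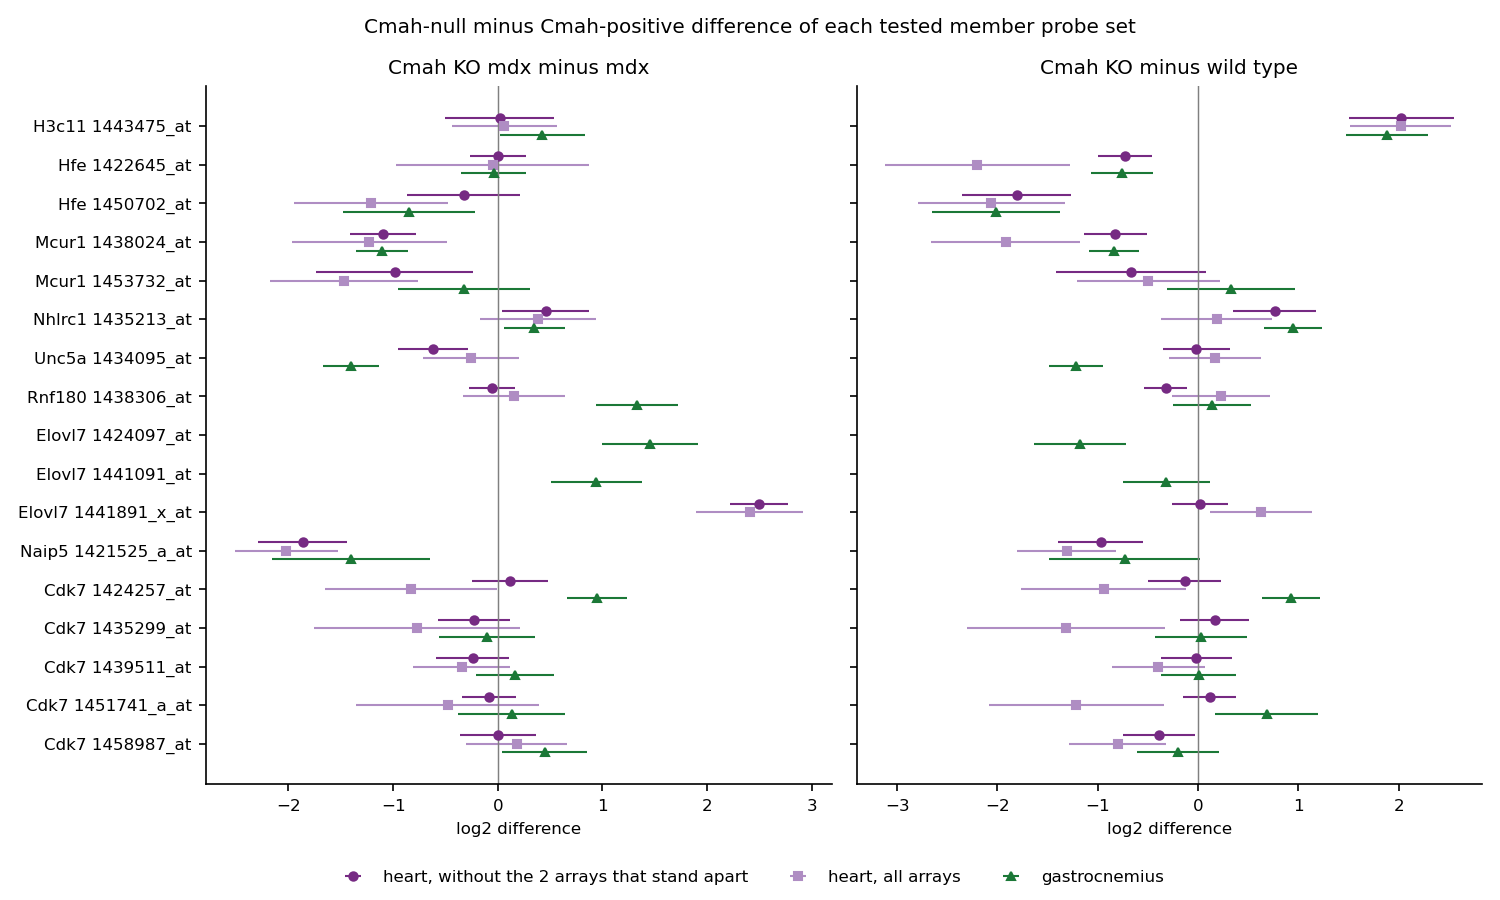
Log2 difference (horizontal axis, limma standard error as bars) of each tested member probe set in Cmah KO mdx minus mdx (left) and Cmah KO minus wild type (right); circles are hearts without the 2 arrays that stand apart, squares all hearts, triangles gastrocnemius. H3c11 and Hfe differ from 0 mainly on the right, Elovl7 and, in gastrocnemius, Rnf180 on the left, and Mcur1 1438024_at on both sides.

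Counted over each comparison apart, 7 of 16 gastrocnemius probe sets did not overlap between Cmah KO and wild type (3 higher, 4 lower), where 3.22% of all tested probe sets did not (1.78% higher, 1.45% lower). Between Cmah KO mdx and mdx it was 6 of 16 (4 higher, 2 lower), with 3.82% of all (2.28% higher, 1.54% lower). In heart it was 6 of 15 in Cmah KO against wild type (1 higher, 5 lower), with 5.51% of all (1.89% higher, 3.62% lower). It was 3 of 15 in Cmah KO mdx against mdx (1 higher, 2 lower), with 9.04% of all (3.43% higher, 5.61% lower). Without the 2 heart arrays that stand apart the first became 8 of 15 (2 higher, 6 lower), with 9.46% of all (4.63% higher, 4.83% lower). The second became 4 of 15 (1 higher, 3 lower), with 12.9% of all (5.2% higher, 7.65% lower). Among the 3 lower was Unc5a, which had passed the heart filter only with the 2 arrays left out here. The median over all tested heart probe sets was -0.37 in Cmah KO minus wild type with all arrays and -0.02 without the 2, so the heart values without them are the ones comparable with gastrocnemius. The median over the member probe sets was -0.80 with all hearts, -0.13 without the 2 arrays and -0.10 in gastrocnemius, with members on both sides of 0 in each.

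The neighbours of the members were looked at in the same way. The 5 nearest array genes on either side of each member, at their brightest probe set, made up 84 genes, of which 62 were tested in gastrocnemius and 58 in heart. In 0 of them did the 6 Cmah-null and the 6 Cmah-positive arrays not overlap, in either tissue and also in heart without the 2 arrays. Over all tested probe sets the share was 0.0542% in gastrocnemius and 0.19% in heart, or 0.398% without the 2 arrays. With so few neighbours, 0 is near these shares, and nothing is read from it. At other probe sets of these neighbours there was 1 exception, named after its values were seen: a dimmer probe set of Zkscan8, a zinc finger gene and the nearest array gene before H3c11, was higher in Cmah-null arrays without overlap. Its mean difference was 0.85 in gastrocnemius and 1.30 in heart without the 2 arrays, while the brighter Zkscan8 probe set read -0.08 and -0.05. Among the other probe sets of chromosome 13 there were 7 of 882 in gastrocnemius (0.794%) and 4 of 883 in heart (0.453%), or 12 (1.36%) without the 2 arrays.

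**Figure D4:**
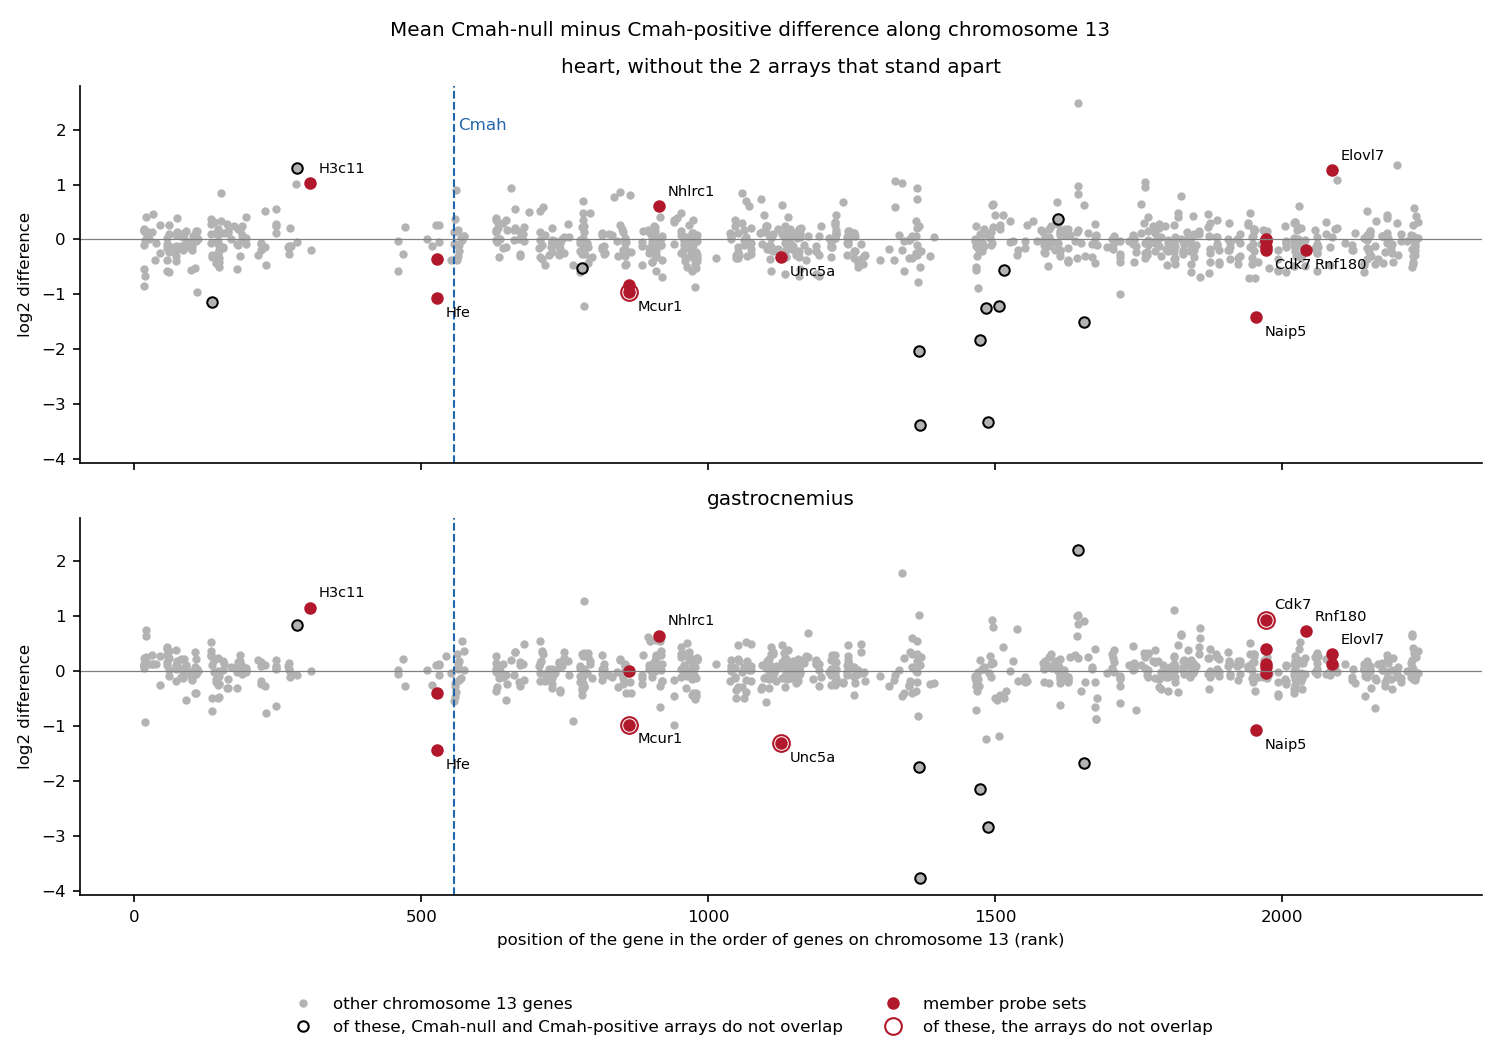
Mean of both Cmah differences (vertical axis, log2) for each tested probe set of chromosome 13 against the position of its gene in the gene order (horizontal axis, rank), in heart without the 2 arrays that stand apart (top) and in gastrocnemius (bottom); red points are the 9 genes, rings mark probe sets whose Cmah-null and Cmah-positive arrays do not overlap, and the dashed line is Cmah. The 9 genes are spread along the chromosome on both sides of Cmah.

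Whether the genes also respond to loss of dystrophin was tested with the mean of both dystrophin comparisons, added after the data were seen. It uses the same arrays as the Cmah differences the genes were chosen on. For Rnf180, the high Cmah KO mdx gastrocnemius arrays set that group apart from mdx and also enter this mean. Its test is therefore not independent of the choice of genes. Rnf180 rose in gastrocnemius, by 1.37 ± 0.27 on the log2 scale or 2.59-fold (limma, Benjamini-Hochberg adjusted p = 0.0445). It was the 1 member of 16 past the threshold, where 0.857% of all 29518 probe sets passed. By the values given above, all 3 Cmah KO mdx arrays and 2 mdx arrays, at 4.88 and 6.19, lay above all 6 dystrophin-positive arrays, whose highest was 4.85. The call was lost with no filter (adjusted p = 0.0576), with a pseudocount of 16 (1.00 on the log2 scale, adjusted p = 0.0522), and when any 1 array other than mdx replicate 3 was left out (adjusted p between 0.0520 and 0.145, log2 changes between 1.14 and 1.47). Read apart, Rnf180 gave 1.97 ± 0.39 in Cmah KO mdx against Cmah KO (adjusted p = 0.0894 in limma) and 0.77 ± 0.39 in mdx against wild type, with 0 members past the threshold in either comparison. The background was 0.112% in Cmah KO mdx against Cmah KO and 0.0169% in mdx against wild type, and 6 and 2 member probe sets had an unadjusted p below 0.05. Of all probe sets, 7.76% and 3.6% had one. These comparisons share arrays with the Cmah comparisons.

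The sums of macrophage and of heart muscle markers were also mostly higher in dystrophin-deficient gastrocnemius. The macrophage sum was 12.87 to 14.15 in Cmah KO mdx and 13.12 to 13.79 in mdx, against 11.75 to 12.39 in Cmah KO and 11.78 to 13.31 in wild type. The sum of 8 heart muscle markers was 13.69 to 14.16 in Cmah KO mdx and 13.57 to 14.06 in mdx, against 12.55 to 13.38 over the Cmah KO and wild type arrays, with no overlap across dystrophin. In gastrocnemius this sum was carried mainly by Actc1 (mean 12.80), then Myl4 (10.92) and Tnnt2 (9.18). Myl7, Ryr2, Nppa and Tnni3 had means of 4.01 to 5.52 there. The sum is thus not a reading of cardiac genes as a set. The mdx array with the highest Rnf180, 6.19, also had the highest macrophage sum of its group, 13.79. Other arrays went apart: wild type replicate 1 had a macrophage sum of 13.31, above the 12.87 of Cmah KO mdx replicate 1. No wild type array read above 4.70 for Rnf180, while every Cmah KO mdx array read at least 6.35. Over all 24 arrays with each tissue's mean taken away, the gene most like Rnf180 was Cd200r4, of the CD200 receptor family, with r = 0.904 (0.889 over 22 arrays), followed by Mfsd12 with 0.880. The part of these markers in the Rnf180 rise was not tested.

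Naip5 read 1.46 ± 0.53 and Hfe 0.75 ± 0.22 at 1422645_at in the same gastrocnemius test, short of the threshold (limma adjusted p = 0.326 and 0.172). H3c11 read -0.71 ± 0.29 (adjusted p = 0.399) and Nhlrc1 -0.44 ± 0.20 (adjusted p = 0.504). The values of Hfe, H3c11 and Nhlrc1 also use the Cmah KO arrays that set these genes apart from wild type, so they are not independent of the choice of genes. H3c11 means were 6.73 in Cmah KO mdx and 8.17 in Cmah KO, against 6.31 in mdx and 6.29 in wild type. For Nhlrc1 they were 6.63 and 7.37, against 6.28 and 6.42. Mcur1, Unc5a and Cdk7 1424257_at, the 3 that separate the Cmah groups, gave -0.08 ± 0.18, -0.09 ± 0.19 and 0.05 ± 0.20. Separation with and without dystrophin favours small dystrophin values, so nothing is read from these 3. In heart 0 of 15 members passed limma's test with dystrophin loss, with or without the 2 arrays, and 0 of 29421 probe sets did (0%; 246 at an unadjusted p below 0.05, and 1 member). The member with an unadjusted p below 0.05 was Elovl7 1441891_x_at, at 0.87 ± 0.36, or 1.22 ± 0.19 without the 2 arrays (limma adjusted p = 0.736). It passed the filter through the Cmah KO mdx hearts alone. Without the 2 arrays 627 probe sets and 2 members had such a p, the other being Naip5 at -0.74 ± 0.30.

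The response of Rnf180 to dystrophin loss differed between the tissues. The heart value was lower than that of gastrocnemius by -1.79 ± 0.39 on the log2 scale (limma adjusted p = 0.0381, animal as a random block), where 0.507% of probe sets passed. Without the 2 heart arrays it was -1.63 ± 0.30 (limma adjusted p = 0.0100, background 1.14%). Both values also use the high Cmah KO mdx gastrocnemius arrays, so they are not independent of the choice of the gene. Naip5 gave -2.11 ± 0.59 and did not pass (adjusted p = 0.150), nor did it without the 2 arrays (-2.18 ± 0.65, adjusted p = 0.133).

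The levels of the genes in heart and gastrocnemius were compared over all 4 genotypes. H3c11 was lower in heart, where its 12 arrays read 2.91 to 6.32, against 5.83 to 8.33 in gastrocnemius. The difference was -1.99 ± 0.20 (limma adjusted p = 7.63e-08), or -1.99 ± 0.21 without the 2 arrays (adjusted p = 3.9e-07), and heart was lower in 12 of 12 animals. Unc5a was also lower in heart, by -0.76 ± 0.17 (adjusted p = 0.00145), and Cdk7 1458987_at was higher, by 0.72 ± 0.20 (adjusted p = 0.00975). Without the 2 arrays these were -0.90 ± 0.13 for Unc5a (limma adjusted p = 2.05e-05) and 0.79 ± 0.17 for Cdk7 1458987_at (adjusted p = 0.00139). These 3 of 15 probe sets compare with 28.8% of all 29585 tested (12.5% higher and 16.3% lower in heart). Without the 2 heart arrays 9 of 15 passed, where 43% of all did. Added to the 3 were Hfe 1450702_at (0.93 ± 0.27), Mcur1 1438024_at (0.49 ± 0.12) and the other 4 Cdk7 probe sets (0.43 to 0.72), all higher in heart. All 5 Cdk7 probe sets read the same gene and are not separate findings. Nhlrc1, Elovl7, Rnf180 and Naip5 passed with neither set of arrays, at -0.27 ± 0.20, -0.13 ± 0.22, -0.17 ± 0.20 and 0.43 ± 0.30 over all arrays. For Unc5a the tissue difference lay mostly in the Cmah-positive groups. Its means were 5.84 in both mdx and wild type gastrocnemius, against 4.60 and 4.29 in heart. In Cmah KO mdx they were 4.45 in gastrocnemius and 4.35 in heart, or 3.99 without the array that stands apart. In Cmah KO they were 4.62 and 4.46, or 4.28 without such an array. Just 3 of 12 hearts were above the filter level for Unc5a, and 2 of them were the arrays that stand apart.

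**Figure D5:**
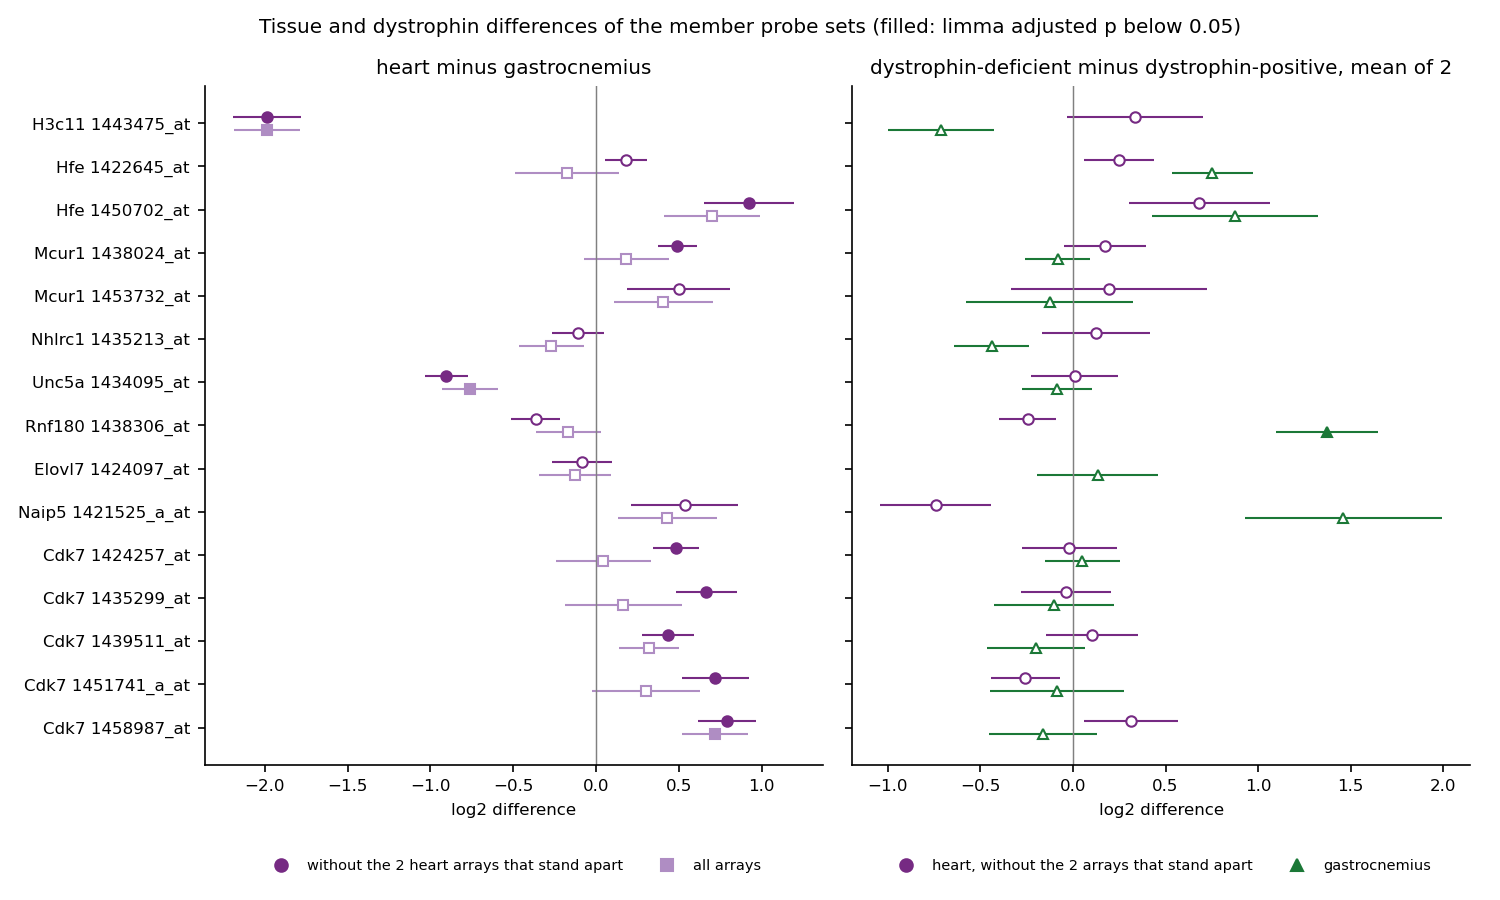
Log2 differences (horizontal axis, limma standard error as bars) of heart minus gastrocnemius (left) and of dystrophin loss as the mean of both comparisons (right); filled symbols passed limma's threshold. H3c11 and Unc5a are lower in heart with either set of arrays, and Rnf180 in gastrocnemius is the 1 filled symbol on the right.

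The families of the genes were followed through lists written with earlier results known. Between heart and gastrocnemius 28.8% of all probe sets passed the threshold (12.5% higher and 16.3% lower in heart), or 43% without the 2 arrays. The list counts below are a description beside that share. Of 41 other replication-dependent histone genes, 4 have a probe set of their own and 3 were tested; H3c4 and H1f2 were lower in heart like H3c11, by -1.07 ± 0.27 (limma adjusted p = 0.00402) and -0.52 ± 0.19 (adjusted p = 0.0489). Their dystrophin values passed in neither tissue. Of 12 tested genes listed around Cdk7 (CDK-activating kinase, TFIIH and RNA polymerase II), 0 were higher and 2 lower in heart. Among these 2 was Polr2a, the large subunit of RNA polymerase II (-1.49 ± 0.21). Without the 2 heart arrays Ccnh, the cyclin partner of Cdk7, was higher in heart by 0.41 ± 0.10 (adjusted p = 0.00262). Of 8 tested uniporter genes around Mcur1, 1 was higher and 3 were lower in heart, or 2 and 3 without the 2 arrays, with the channel subunit Mcu at -1.17 ± 0.17 over all arrays.

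Of 14 tested glycogen genes around Nhlrc1, 2 were higher and 8 lower in heart, with or without the 2 arrays, and the list median was -1.37 against -0.05 for all probe sets. Over all probe sets 12.5% were higher and 16.3% lower in heart, and without the 2 arrays 43% passed in either direction. Ppp1r3b, a glycogen-targeting subunit of protein phosphatase, was higher by 3.17 ± 0.22, and Gys1, muscle glycogen synthase, was lower by 2.43 on the same scale (SE 0.17). Of 20 iron genes around Hfe, 4 were higher and 4 lower in heart, or 7 and 4 without the 2 arrays. The list median was -0.04 against -0.05 for all probe sets, or 0.24 against 0.04 without the 2 arrays. Among them were the hepcidin gene Hamp (3.17 ± 0.61) and Hjv, a hepcidin regulator (-1.08 ± 0.21), both with all arrays. Of 8 netrin genes and receptors around Unc5a, 3 were higher and 1 was lower with either set of arrays, with Ntn1 at 1.30 ± 0.24 and Ntng1 at -0.99 ± 0.18. Of 9 fatty acid elongation genes around Elovl7, 0 were higher and 1, Hacd1, was lower in heart (-0.81 ± 0.25). Without the 2 arrays 2 were higher and 1 lower, and the list median was 0.10 in place of -0.12.

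With dystrophin loss in gastrocnemius, where 0.857% of all probe sets passed, 1 of 9 elongation genes did. Hacd4, a dehydratase of the elongation cycle, rose by 1.84 ± 0.33 (limma adjusted p = 0.0290). Elovl7 itself read 0.13 ± 0.33 there. Of 8 tested inflammasome genes around Naip5, 0 passed limma's threshold in gastrocnemius and 8 had an unadjusted p below 0.05, all 8 were above 0, and their median was 1.21 against -0.01 for all probe sets, of which 10.1% had an unadjusted p below 0.05. Naip6, a close copy of Naip5, read 1.76 ± 0.40 (adjusted p = 0.0772). Its response differed between heart and gastrocnemius, by -2.04 ± 0.43 (adjusted p = 0.0295) or -2.18 ± 0.45 without the 2 heart arrays (adjusted p = 0.0207). The macrophage sums given above were also mostly higher in dystrophin-deficient gastrocnemius. The lists for H3c11, Hfe, Mcur1, Nhlrc1, Unc5a, Rnf180 and Cdk7 had 0 genes past limma's threshold with dystrophin loss in either tissue. At an unadjusted p below 0.05, gastrocnemius had 2 genes of the Hfe list and 1 each of the Mcur1, Nhlrc1 and Unc5a lists, and heart 2 of the Nhlrc1 list and 1 of the Unc5a list. Without the 2 arrays it was 1 each of the Hfe, Nhlrc1 and Unc5a lists in heart. The share of all heart probe sets was 0.836%, or 2.13% without the 2 arrays.

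The genes most like the members over the 24 arrays, each tissue's mean taken away, were compared among 13683 genes at their brightest probe set. For Unc5a both lie on chromosome 13, Fastkd3 (r = 0.708) and Rsl1 (0.679), and the likeness was 0.742 and 0.761 over the 22 arrays without the 2 that stand apart. For Mcur1 they were Ptprb (0.890) and Mterf3 (0.888), the second on chromosome 13, which read 0.583 and 0.582 over 22 arrays. For Naip5 they were Fyb (0.789), an adaptor of immune cells, and Myo5a (0.767). For Elovl7 they were Elobl (0.776) and Gabrp (0.711), and for Nhlrc1 Gata4 (0.807) and Cox18 (0.759). For Hfe the values of Trim21 (0.945) and Lyrm2 (0.944) dropped to 0.695 and 0.600 over 22 arrays. For Cdk7 those of Commd8 (0.985) and Cpsf4 (0.984) were 0.917 and 0.918. For H3c11 they were Oaz3 (0.621) and Ntng1 (0.586), or 0.613 and 0.565 over 22 arrays. These points share arrays and array quality, and so describe the arrays without a test.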

How the data were processed

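The deposited values are intensity per probe set on a linear scale, which the authors made with GCOS and RMA, per the submitters' processing notes. Versions, genome build and exact scaling are not given in the sources used here. Per the labels' protocols, 25 ng of RNA per sample went into the NuGEN Ovation amplification. Values were taken to log2 with no further scaling and tested with limma 3.58.1 (R 4.3.3): 1 fit of 4 group means per tissue, and for tissue comparisons 1 fit of all 24 arrays with the animal as a random block (correlation 0.219, at least 6 of 24 arrays above the filter). P-values were adjusted by Benjamini-Hochberg over all tested probe sets, with a threshold of 0.05, and measure the spread between these animals. Python 3.11.15 was used for descriptions. The members and lists were chosen with earlier results of these data known, and the Cmah differences carry no test. Named were every member probe set, Dmd and Cmah, up to 2 genes per list by smallest p, and 2 genes per member by likeness. Beyond that rule, Myh6 and Myh4 were named as tissue markers. The fits were tested on simulated data. Number of arrays limits the precision.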

Additional observations from a re-analysis of the deposited data

Results flagged for a closer look

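The response of Rnf180 1438306_at to dystrophin loss differed between the tissues, by -1.79 ± 0.39 on the log2 scale for heart minus gastrocnemius (limma adjusted p = 0.0381, a test of the difference itself). The strain label differs along with dystrophin in both tissues. The high Cmah KO mdx gastrocnemius arrays also enter the Cmah comparison, so the test is not independent of the choice of the gene.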

How the results depend on the processing

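The mean of both dystrophin comparisons, the tissue difference of dystrophin loss and the heart values without 2 arrays were added after seeing the data. The 1 member past the threshold in the mean of both dystrophin comparisons in gastrocnemius became 0 with no filter, 0 with the stricter filter, which left Rnf180 untested, 0 with a pseudocount of 16, and 0 to 1 when each array was left out in turn. Array weights gave 2 members, Rnf180 and Elovl7 1424097_at, in Cmah KO mdx against Cmah KO gastrocnemius (0 otherwise), and 1, H3c11, in mdx against wild type heart. The H3c11 call uses the low wild type hearts that also set it apart from Cmah KO. It is thus not independent of the choice of the gene. Elovl7 1424097_at passed the gastrocnemius filter through the 3 Cmah KO mdx arrays and 1 wild type array. In the tissue comparison 3 members became 9 without both heart arrays. Array weights reversed Elovl7 1441891_x_at in Cmah KO minus wild type heart (-0.24) and Hfe 1450702_at in Cmah KO mdx minus mdx heart (0.13). The cause was not tested. Of 1941 other values, 1891 kept direction and side of the threshold. Counts over all probe sets ran between 0 and 9 for mdx against wild type gastrocnemius (5 as reported), 2 and 539 for Cmah KO mdx against Cmah KO (33), 70 and 860 for their mean (253), 0 and 133 for mdx against wild type heart (0), and 2787 and 12715 for the tissues (8507). Replicate numbers were not used to pair the animals within a tissue. In gastrocnemius 10 of 18 same-numbered pairs correlated above 0.1 (median 0.175), against 14 of 36 different-numbered pairs (median -0.092). In heart it was 6 of 18 (median 0.002) against 14 of 36 (median -0.054). The source of the gastrocnemius difference was not tested. The replicate block left 1 member past the threshold in the mean of both dystrophin comparisons in gastrocnemius (Rnf180, adjusted p = 0.0379). With 3 animals a group, dim probe sets such as those of Elovl7 and heart Unc5a have uncertain sizes.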
